A study of Homo sapiens with 15 samples.

Results

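Genes of the voltage-gated sodium, calcium and HCN channels and of all potassium channel families, with their auxiliary subunits, were compared across human neuroblastoma cell lines. The members were every gene whose symbol begins with SCN, CACN, KCN or HCN in the form used for these channels, taken from probe sets that name a single gene and represented by the probe set with the highest mean. They numbered 131 of the 18244 genes on the array, and 127 of them code for channel subunits. The other 4 carry matching symbols only: KCNRG, a potassium channel regulator, and the noncoding transcripts KCNJ5-AS1, KCNIP4-IT1 and KCNQ1OT1.

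Total RNA from cultured NGP, BE(2)-C, KELLY, SK-N-AS and SH-SY5Y cells was measured on 3' expression arrays, with 3 arrays for each of the 5 lines and 15 in all. All lines were grown in the same serum-containing medium, no treatment or genetic change is given, and ERCC spike-in RNA was added at lysis to counted cells. NGP, BE(2)-C and KELLY are known from general knowledge as MYCN-amplified lines, SK-N-AS and SH-SY5Y as lines without the amplification, and the labels give none of this. BE(2)-C and SH-SY5Y are each a clone of an older line, so that each line stands for 1 tumour, and these 2 lines for 1 clone of it. The labels number the replicates without saying whether they are separate cultures, and the p-values measure the spread between these arrays, which may be technical.

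Voltage-gated sodium and calcium channels open when the membrane depolarises and carry the inward currents of action potentials and of stimulus-coupled secretion. Potassium channels carry outward current that sets the resting potential, repolarises the cell and limits firing: voltage-gated, calcium-activated, inward-rectifying and two-pore-domain leak channels form separate families, and HCN channels open on hyperpolarisation. Neuroblastoma arises from the developing sympathetic nervous system, whose neurons and chromaffin cells are electrically excitable. Alpha subunits form the pore, while alpha2delta, beta and gamma subunits, KCNE, KCNIP and KCNAB proteins change trafficking or gating.

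Values are MAS5 intensities as deposited, on a linear scale, and differences are on the log2(intensity + 1) scale. The medians of the ERCC probe sets lay between 8.85 and 9.12 (log2) on all arrays, whereas the median intensity of an array lay between 51.9 and 126, lowest in SH-SY5Y and highest in SK-N-AS. The deposited scale therefore keeps array-wide differences, and each call was repeated after every array was centred on its own median. Over all tested genes, the median log2 difference of SK-N-AS minus SH-SY5Y was 1.23 as deposited and -0.11 centred, and that of KELLY minus SK-N-AS was -0.98 and 0.13. As a check of the classes, NGP averaged 9930 ± 615 for MYCN, BE(2)-C 13700 ± 526 and KELLY 9360 ± 163, whereas SK-N-AS averaged 78.8 ± 6.3 and SH-SY5Y 152 ± 30.2 (SD, n = 3 each). Of 15 measured sympathoadrenal markers, all 15 reached the median of the whole table in NGP, BE(2)-C and KELLY, 9 did in SK-N-AS and 14 did in SH-SY5Y. Among the SK-N-AS markers below it were CHGA at 53.3, CHGB at 40.6 and ELAVL4 at 39.4. Several markers of other cell types were high in SK-N-AS: 6 of 7 mesenchymal markers (summed intensity 35400 to 39100 per array, against 851 to 5210 in the other lines), 3 of 5 epithelial markers (9610 to 10600, against 180 to 582) and 2 of 3 leukocyte markers (894 to 995, against 79.9 to 120) lay at or above the median. Of the mesenchymal markers, 5 also reached the median in NGP, 4 in BE(2)-C and 3 each in KELLY and SH-SY5Y. The mesenchymal sum of SK-N-AS rested mainly on VIM at 17800 and COL3A1 at 17500. PDGFRB was lower in SK-N-AS, at 428, than in BE(2)-C, at 708. The epithelial sum rested mainly on KRT18 at 8600 and KRT8 at 1390. KRT19 was lower in SK-N-AS, at 106, than in BE(2)-C, at 358. EPCAM was lowest in SK-N-AS, at 16.8, and CDH1 lay between 24.6 and 34.5 in all lines. No marker was at 0, and the part of these markers in the SK-N-AS results below was not tested. In such bulk RNA, fewer cells of a type and less RNA per cell cannot be told apart.

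The first question was which channel genes rose above the middle of the measured range. The median over all values of the table, called the overall median here, was an intensity of 80.6. At or above it in at least 1 line were 67 of the 131 genes (51.1%), against 69.7% of all genes. Every line showed a lower share than all genes: 40 channel genes (30.5%) in NGP, 49 (37.4%) in BE(2)-C, 32 (24.4%) in KELLY, 42 (32.1%) in SK-N-AS, and just 22 (16.8%) in SH-SY5Y, while the shares of all genes were 56.6%, 61.4%, 54%, 63.9% and 50.2% in that order of lines. On centred arrays the 5 counts were 48, 32, 48, 23 and 38, so the order of the lines depended on the scale.

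**Figure D1:**
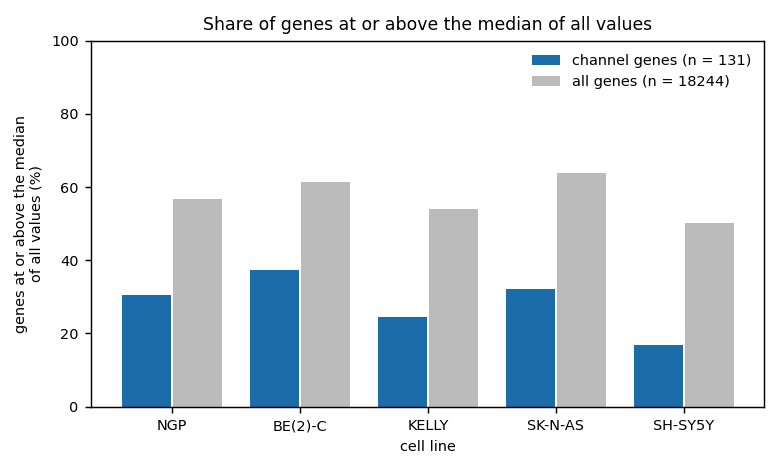
Share of genes (%) whose line mean intensity was at or above the overall median, for the 131 channel genes and all 18244 genes in each of the 5 lines. In every line the channel genes' bar was the shorter, from 16.8% in SH-SY5Y to 37.4% in BE(2)-C.

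Only 10 channel genes reached the median in all 5 lines. They were the potassium channel pore genes KCNH2 and KCNC1, the calcium-activated channel gene KCNN1, the leak channel genes KCNK1, KCNK3 and KCNK4, HCN3, the sodium channel beta subunit gene SCN2B, and CACNG4 and CACNG8, which code for gamma subunits that also bind AMPA receptors. Another 18 reached it in a single line: 3 in NGP, 6 in BE(2)-C, 2 in KELLY, 7 in SK-N-AS and none in SH-SY5Y. The filter stood close to several genes. KCNMB3, KCNIP2 and KCNK10 were just inside with highest line means of 6.388, 6.375 and 6.364 (log2), and CACNA1C, KCNK6 and HCN4 were just outside with 6.344, 6.314 and 6.306. The 64 genes below the filter had highest line means between 17.2 and 80.7 and were not tested; among them were 5 of 9 sodium channel alpha genes and 19 of 35 voltage-gated potassium channel pore genes. For comparison, 23 background control probe sets had medians of 16.5 to 17.9 in the lines, but the brightest of them read 910 to 2500, above 129 to 131 of the 131 channel genes.

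By the filter itself, genes that passed through a single line lay at or above the overall median there and below it elsewhere. Such genes need not be called in a pair, as CACNG1 was in none. They were more frequent among the tested channel genes (18 of 67, 26.9%) than among all tested genes (9.75%). The shares of calls below stand beside those of all tested genes, which does not remove this difference, and no excess of channel genes is read from them. At least 1 of the 10 pairs of lines was called, at an adjusted p under 0.05 and a log2 difference of at least 1, for 60 of the 67 tested channel genes (89.6%) and for 91.4% of all 12721 tested genes. After centring the counts were 43 of 67 (64.2%) and 54.6%. The range of the 5 line means had a median of 1.59 (log2) for channel genes and 1.71 for all tested genes, and ranges of 3 or more were held by 16 channel genes (23.9%) and by 14.3% of all. After centring the order of the medians turned, to 1.66 and 1.08, and the shares were 26.9% and 11.3%. Standard errors of the pairwise log2 differences of channel genes lay between 0.09 and 0.17.

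**Figure D2:**
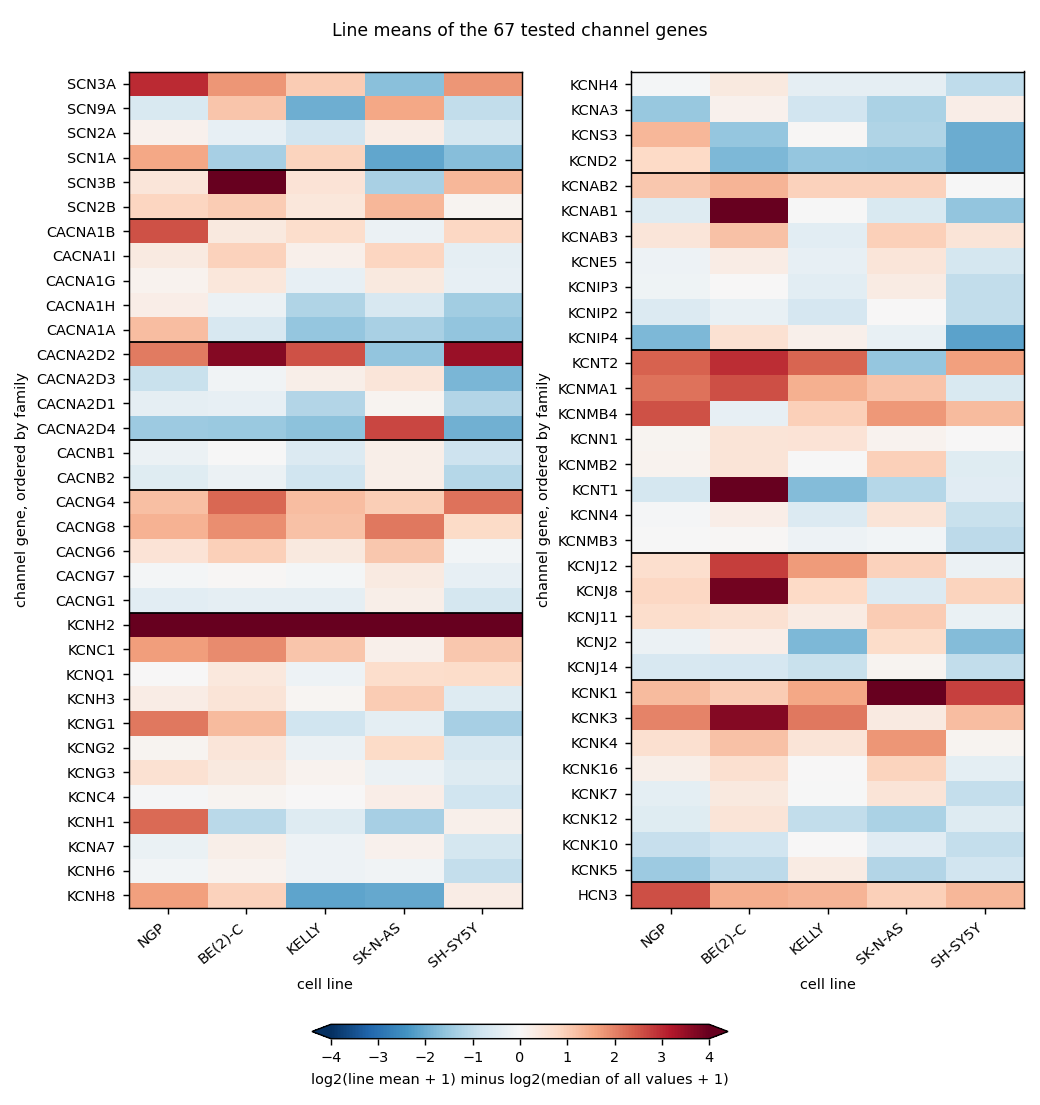
Line mean of each of the 67 tested channel genes relative to the overall median (log2 scale, colour limited at 4 units either way), with columns for the 5 lines and rows grouped by family. Rows are to be read within themselves, since probe sets differ in response; most rows are palest or bluest in SH-SY5Y, and single dark cells stand out for KCNAB1, KCNT1 and SCN3B in BE(2)-C and for CACNA2D4 in SK-N-AS.

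Between pairs of lines, calls were counted by direction. In NGP relative to SK-N-AS, 18 channel genes were called higher (26.9%, against 7.45% of all genes) and 6 lower (8.96%, against 36.5%). For BE(2)-C relative to SK-N-AS the counts were 17 higher (background 9.79%) and 3 lower (15.8%), and for KELLY relative to SK-N-AS 9 higher (5.27%) and 11 lower (49.1%). Of these calls, 21, 20 and 13 held with the same sign after centring. The pairs with SH-SY5Y gave 18 higher (18.8%) and 3 lower (4.17%) for NGP, 31 higher (53.6%) and 3 lower (2.48%) for BE(2)-C, and 8 higher (10.4%) and 4 lower (5.32%) for KELLY, with the background in brackets. Among the amplified lines, 9 were higher (5.13%) and 11 lower (26.3%) in NGP relative to BE(2)-C, 14 higher (11.7%) and 4 lower (4.47%) in NGP relative to KELLY, and 15 higher (39.2%) and 4 lower (3.34%) in BE(2)-C relative to KELLY. The shares of channel genes in KELLY relative to SH-SY5Y, 11.9% and 5.97%, were near the background. SK-N-AS relative to SH-SY5Y gave the most calls, 29 higher (background 64.2%) and 10 lower (4.28%), but 13 of the 39 were also called after centring: 3 higher and all 10 lower. No gene was called in opposite directions by the 2 scales in any pair.

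**Figure D3:**
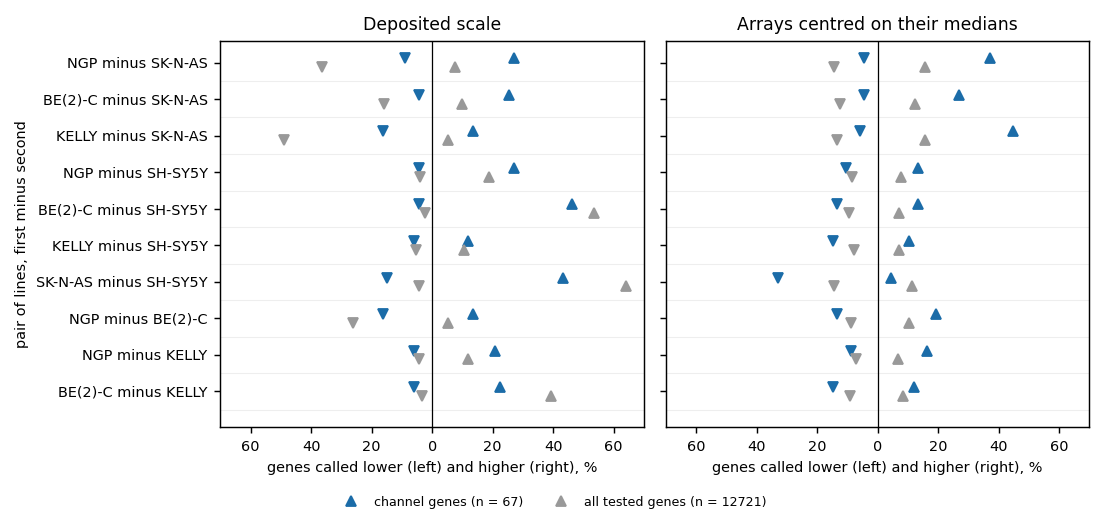
Symbols give the percent of tested genes called lower (left of zero) and higher (right of zero) in each of the 10 pairs of lines, for the 67 channel genes and all 12721 tested genes, as deposited and after centring. In the pairs of NGP, BE(2)-C and KELLY with SK-N-AS, the channel genes' symbols lie farther out than the background on the higher side and nearer zero on the lower side as deposited.

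A gene was said to mark a line when it differed from each of the other 4 lines in the same direction. By this rule 20 of 67 tested channel genes (29.9%) marked a line, against 25.5% of all tested genes, and 24 (35.8%) did so after centring, against 19%. For 13 genes a mark held on both scales, in the same line and direction. Of the 20, 6 lay above the median in the marked line alone, 9 in 4 lines and 3 in all 5. In no case did the arrays of the marked line overlap those of the other lines. With the standard errors given above, the rule for a mark leaves little room for overlap.

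**Figure D4:**
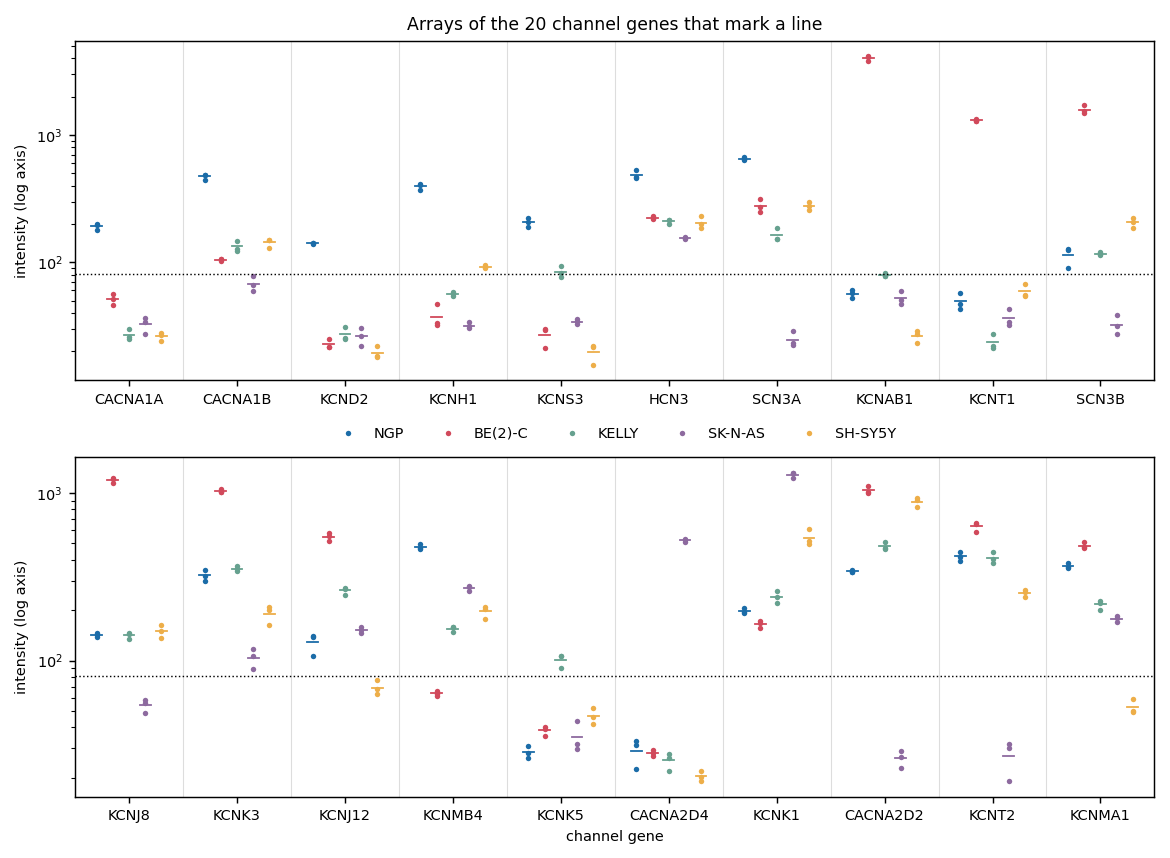
Intensity (log axis) on each of the 15 arrays for the 20 channel genes that marked a line, with dots for arrays, dashes for line means and a dotted line at the overall median, 80.6. The 3 arrays of a line sit close together in each panel; BE(2)-C stands far above for KCNAB1, from 3790 to 4170, and SK-N-AS for CACNA2D4, from 509 to 532.

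Among the sodium channel genes, 4 of 9 alpha and 2 of 3 beta subunit genes were tested and all 6 were called in some pair, as were 91.4% of all tested genes. The 3 arrays of NGP gave 671, 645 and 633 for SCN3A, a pore subunit of embryonic and early postnatal neurons in rodents, and those of SK-N-AS gave 28.6, 23 and 22.4. Of the remaining lines, BE(2)-C averaged 277 ± 32.6, KELLY 164 ± 19.8 and SH-SY5Y 278 ± 20.5 (SD, n = 3 each). SCN3A thus stood highest in NGP and lowest in SK-N-AS without overlap. SK-N-AS minus each other line was -2.68 or lower (highest adjusted p = 1.09e-17) and held after centring; the background of genes marking SK-N-AS as lower was 2.12%. NGP exceeded each other line by at least 1.22 (highest adjusted p = 1.92e-10; background 1.67%), and this mark was lost after centring. All other SCN3A probe sets were dim, that is below the overall median in every line.

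SCN3B codes for a beta subunit that alters sodium current kinetics and has an immunoglobulin-like cell adhesion domain. Its intensities were 1710, 1550 and 1500 in BE(2)-C and 38.2, 31.5 and 27.2 in SK-N-AS, while NGP averaged 113 ± 20.5, KELLY 117 ± 4.01 and SH-SY5Y 206 ± 18.3 (SD, n = 3 each). BE(2)-C was far above every other array, 7.71-fold above the next line, and SK-N-AS below every other array. The log2 difference was at least 2.94 for BE(2)-C (highest adjusted p = 4.09e-17; background of genes marking BE(2)-C as higher 3.46%) and -1.78 or lower for SK-N-AS (highest adjusted p = 7.34e-13). Both marks held after centring, and the second bright probe set of SCN3B had the same extreme line.

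SCN1A, SCN9A and SCN2A code for pore subunits of central neurons and, for SCN9A, of sensory and sympathetic neurons. The 2 neighbours SCN1A and SCN9A, with no coding gene between them on chromosome 2, did not share a pattern. For SCN1A, NGP averaged 237 ± 3.5, BE(2)-C 31.2 ± 3.93 and KELLY 150 ± 8.85, against SK-N-AS with 18.2 ± 3.33 and SH-SY5Y with 23.9 ± 1.68. For SCN9A, NGP averaged 52.7 ± 13.3, BE(2)-C 175 ± 8.66 and KELLY 19.9 ± 1.37, against SK-N-AS with 237 ± 7.87 and SH-SY5Y with 40 ± 3.94 (SD, n = 3 each). SCN1A was therefore high in NGP and KELLY, where SCN9A was low, and low in SK-N-AS, where SCN9A was highest. NGP exceeded SK-N-AS for SCN1A by 3.64 (SE 0.13, adjusted p = 9.35e-19), and KELLY minus SK-N-AS was -3.51 for SCN9A (SE 0.14, adjusted p = 7.74e-18); both were called after centring. SCN2A lay between 47.5 and 99.8, and its difference of KELLY minus SK-N-AS, -1.06 as deposited, was 0.06 after centring. SCN2B was at or above the median in all lines, with 206 for SK-N-AS at the top and 86.1 for SH-SY5Y at the bottom, and SCN4B was below it in all.

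Calcium channel pore genes passed the filter in 5 of 10 cases. CACNA1B codes for the pore of the N-type channel and CACNA1A for that of the P/Q-type channel, which both open synaptic release. Intensities of CACNA1B were 486, 489 and 447 in NGP, against 59.5 to 150 (median 115) on the 12 arrays of the other lines. CACNA1A gave 197, 201 and 178 in NGP, against 24 to 55.9 (median 28.6). NGP stood alone at the top for both genes. It exceeded each other line by at least 1.72 for CACNA1B (highest adjusted p = 1.16e-13) and by at least 1.89 for CACNA1A (highest adjusted p = 1.34e-12), both also after centring. The other bright probe set of each gene was highest in NGP too, by smaller gaps. That of CACNA1B read 102 in NGP, with BE(2)-C next at 75.2, and that of CACNA1A 93, with BE(2)-C next at 38.8. The T-type channel genes CACNA1I and CACNA1G spanned 62.5 to 153 and 63.6 to 111, and for CACNA1I the largest difference, BE(2)-C minus SH-SY5Y of 1.27 (SE 0.16, adjusted p = 4.14e-08), was not called after centring. CACNA1C, the pore of an L-type channel, did not pass the filter.

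All 4 alpha2delta genes, whose products carry pore subunits to the surface and bind gabapentin in the case of CACNA2D1 and CACNA2D2, were tested. CACNA2D4 read 509, 527 and 532 in SK-N-AS, against 19.1 to 33.1 (median 26.7) on the 12 other arrays. CACNA2D2 read 29, 26.7 and 22.8 in SK-N-AS, against 339 to 1100 (median 668). On the probe sets used, the 2 genes had opposite patterns. SK-N-AS was the single line above the overall median for CACNA2D4 and the single line below it for CACNA2D2. For CACNA2D4 the smallest log2 difference was 4.14 (highest adjusted p = 2.47e-19; background of genes marking SK-N-AS as higher 12.6%), 18-fold above the next line, and all 4 other bright probe sets were highest in SK-N-AS. For CACNA2D2 SK-N-AS minus each other line was -3.67 or lower (highest adjusted p = 3.81e-22). Both marks held after centring. The other bright CACNA2D2 probe set was also lowest in SK-N-AS, but at 124, above the overall median and close to NGP at 130. It read 173 for KELLY, 216 for SH-SY5Y and 308 for BE(2)-C. For the CACNA2D3 probe set used, SK-N-AS averaged 113 ± 4.79 and SH-SY5Y 21.9 ± 3.49 (SD, n = 3 each). This difference of 2.33 (SE 0.12, adjusted p = 1.07e-15) was not called after centring. Another bright CACNA2D3 probe set was highest in KELLY, at 198, with SK-N-AS next at 130 and SH-SY5Y lowest at 13.8. That probe set was not tested after centring. CACNA2D1 lay between 35.3 and 86.3.

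For the tested beta and gamma subunit genes, the line means of the probe sets used spanned 0.68 to 1.38 (log2). CACNB1 and CACNB2, intracellular subunits that aid surface expression, were highest in SK-N-AS, at 94.8 ± 6.03 and 95 ± 8.07, and lowest in SH-SY5Y, at 45.2 ± 2.07 and 36.1 ± 5.34 (SD, n = 3 each). For these probe sets neither difference was called after centring, where that of CACNB1 turned to -0.28. Other probe sets of CACNB2 and CACNG6 disagreed in size: another CACNB2 probe set read 376 in SK-N-AS, against 142 for NGP, 18.3 for BE(2)-C, 16.6 for KELLY and 35.3 for SH-SY5Y, and another of CACNG6 read 148 in SK-N-AS, against 26.8 to 51.2 in the other lines. CACNG4 differed in shape from the other tested gamma subunit genes. For it BE(2)-C averaged 399 ± 37.6 and SH-SY5Y 366 ± 21.2, while NGP averaged 185 ± 18.4, KELLY 193 ± 6.88 and SK-N-AS 159 ± 8.2 (SD, n = 3 each). Below the filter, CACNG2 was highest in SH-SY5Y, at 66.6. BE(2)-C exceeded SK-N-AS for CACNG4 by 1.32 (SE 0.09, adjusted p = 1.78e-12), also called after centring. CACNG8, CACNG6 and CACNG7, consecutive coding genes on chromosome 19, were all highest in SK-N-AS and lowest in SH-SY5Y, by 1.35, 1.19 and 0.68, and none of these was called after centring, where CACNG6 turned to -0.14.

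Of 35 voltage-gated potassium channel pore genes, 16 were tested, 14 were called in some pair and 3 marked a line, all of them NGP. KCND2, the pore of an A-type channel of neurons, gave 139, 142 and 142 in NGP, against 17.9 to 31 (median 23.4) on the 12 other arrays. KCNH1, an ether-a-go-go channel, gave 410, 403 and 372 in NGP, against 30.3 to 95.2 (median 50.7). KCNS3, a silent subunit that joins other pore subunits, gave 190, 206 and 222 in NGP, against 15.7 to 92.9 (median 31.3). NGP lay above every other array for each of the 3 genes. The smallest differences were 2.34 for KCND2 (highest adjusted p = 3.15e-13), 2.08 for KCNH1 (6.17e-14) and 1.29 for KCNS3 (2.03e-08); the first 2 held after centring and that of KCNS3 did not. The other probe sets of KCND2 and KCNH1 were dim, and KCNS3 had no other.

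KCNH2, which codes for the hERG channel and is known in neuroblastoma cells, was at or above the median on all arrays. NGP averaged 2960 ± 182, BE(2)-C 4540 ± 290 and KELLY 2400 ± 102 for it, against SK-N-AS with 1370 ± 147 and SH-SY5Y with 1940 ± 201 (SD, n = 3 each). The order of the means ran from BE(2)-C through NGP, KELLY and SH-SY5Y to SK-N-AS, and BE(2)-C exceeded SK-N-AS by 1.73 (SE 0.09, adjusted p = 2.21e-15). Other bright KCNH2 probe sets had the same extreme lines but another order between them. One gave 1720 for SH-SY5Y, against 1630 for NGP and 1270 for KELLY, and the other gave 109, against 126 and 103. After centring KCNH2 marked SK-N-AS as lower. KCNC1, a fast delayed rectifier, showed the same 2 extreme lines with 302 ± 31.1 in BE(2)-C and 93.8 ± 8.3 in SK-N-AS (difference 1.67, SE 0.10, adjusted p = 4.61e-14). KCNQ1, a slow delayed rectifier, had means of 69.3 ± 3.1 for KELLY, 133 ± 7.91 for SK-N-AS and 134 ± 4.48 for SH-SY5Y (SD, n = 3 each), of which the last 2 lay closer than their spread. It marked SH-SY5Y as higher after centring. Another bright KCNQ1 probe set set these 2 lines apart as deposited, with 162 for SH-SY5Y and 115 for SK-N-AS. KCNH3 averaged 165 in SK-N-AS, against 56.4 in SH-SY5Y, a difference of 1.51 that was not called after centring.

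The widest range of any channel gene belonged to KCNAB1, a beta subunit that binds voltage-gated potassium channels in the cytoplasm and speeds inactivation. Its intensities were 4170, 4070 and 3790 in BE(2)-C, against 23.3 to 82.4 (median 54.9) on the 12 other arrays. BE(2)-C was the single line with a mean above the overall median, 50.7-fold above the next line. The smallest log2 difference was 5.65 (highest adjusted p = 7.25e-24), the mark held after centring, and both other bright probe sets were highest in BE(2)-C. The related KCNAB2 averaged 207 ± 9.68 and KCNAB3 182 ± 13.1 in BE(2)-C, against 80.1 to 171 and 59.5 to 156 over the means of the other lines; neither was a mark. KCNE5, an X-linked subunit, averaged 114 in SK-N-AS, against 48.9 in SH-SY5Y, a difference of 1.21 that turned to -0.13 after centring.

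Promoter sequence from RefSeq (GRCh38.p14) was at hand for 98 of the 131 genes. Since the series concerns MYCN, each 300-base window, from 250 bases before to 50 after a transcript start, was searched for the E-box CACGTG, a palindrome that MYC-family proteins can bind. It was held by 10 of 146 windows of channel genes (6.85%) and by 7.26% of all 35116 windows, which gives channel genes no excess. Of the genes that marked a line, 3 held it, and 60 bases upstream of the start are shown for them with the E-box in capitals, all on the + strand.
KCNAB1, chr3:156290927-156290986, E-box from 8 bases before the start: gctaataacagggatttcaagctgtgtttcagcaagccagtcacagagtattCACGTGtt
KCND2, chr7:120272967-120273026, E-box from 181 bases before the start: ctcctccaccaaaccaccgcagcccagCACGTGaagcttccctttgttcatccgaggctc
CACNA1B, chr9:137877710-137877769, E-box from 45 bases before the start: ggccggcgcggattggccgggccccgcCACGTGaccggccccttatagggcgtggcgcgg
The 3 genes were each highest in 1 MYCN-amplified line and lower in the other 2: KCNAB1 in BE(2)-C, KCND2 and CACNA1B in NGP. The match is a description of the letters and shows no binding.

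Calcium- and sodium-activated potassium channel genes held 4 marks among 8 tested. KCNT1 and KCNT2 code for sodium-activated channels and had different patterns. KCNT1 gave 1330, 1300 and 1280 in BE(2)-C, against 21.1 to 67.7 (median 43) on the 12 other arrays. KCNT2 gave 31.8, 30 and 19.2 in SK-N-AS, against 240 to 663 (median 408) elsewhere. On the probe sets used, KCNT1 passed the filter through BE(2)-C alone, while KCNT2 was above the overall median in every line but SK-N-AS. The smallest difference was 4.45 for KCNT1 in BE(2)-C (highest adjusted p = 6.72e-20), and SK-N-AS minus each other line was -3.21 or lower for KCNT2 (highest adjusted p = 4.81e-18); both held after centring. Of 2 other bright KCNT1 probe sets, 1 was highest in BE(2)-C, at 86. The second was highest in SK-N-AS, at 84, against 66.4 in BE(2)-C, below the overall median. The other KCNT2 probe sets were dim.

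KCNMA1 codes for the pore of the large-conductance BK channel and KCNMB4 for its neuronal beta subunit. KCNMA1 gave 58.9, 50.3 and 49.7 in SH-SY5Y, against 170 to 508 (median 292) on the 12 other arrays. KCNMB4 gave 66.2, 61.7 and 63.3 in BE(2)-C, against 148 to 493 (median 235). The pore gene and its subunit were therefore low in different lines, and BE(2)-C, lowest for KCNMB4, was highest for KCNMA1 with 484 ± 20.7 (SD, n = 3). SH-SY5Y minus each other line was -1.73 or lower for KCNMA1 (highest adjusted p = 9.74e-16; background 3.95%), which did not hold after centring, and 1 of 3 other bright probe sets had the same extreme. BE(2)-C minus each other line was -1.27 or lower for KCNMB4 (highest adjusted p = 5.96e-13; background 0.574%), which held. KCNN1, a small-conductance channel, stayed between 81.7 and 119 in line means.

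Among 5 tested inward rectifier genes, KCNJ8 codes for a pore of ATP-sensitive channels in vascular muscle. KCNJ8 gave 1230, 1210 and 1140 in BE(2)-C and 58.1, 48.6 and 56.2 in SK-N-AS, while NGP averaged 143 ± 3.52, KELLY 142 ± 6.5 and SH-SY5Y 150 ± 12.4 (SD, n = 3 each). The 3 middle lines differed by less than their spread, BE(2)-C was 7.95-fold above the nearest, and SK-N-AS was below all. The smallest difference was 2.99 for BE(2)-C (highest adjusted p = 8.54e-20) and the difference for SK-N-AS was -1.37 or lower (highest adjusted p = 2.47e-13), both held after centring. KCNJ12, a strong inward rectifier, gave 579, 551 and 516 in BE(2)-C, against 63.1 to 272 (median 143) elsewhere, at least 1.06 above each line (highest adjusted p = 6.3e-10) and not a mark after centring. KCNJ11, the pore of ATP-sensitive channels in insulin cells and neurons, averaged 165 in SK-N-AS, against 66.5 in SH-SY5Y, and that difference of 1.30 turned to -0.03 after centring. In BE(2)-C, 3 of 3 endothelial markers (summed intensity 413 to 427 per array, against 103 to 282 in the other lines) and 2 of 3 Schwann cell markers (419 to 445, against 117 to 245) were at or above the overall median, and their part in these results was not tested. These sums rested mainly on CDH5 at 231 and S100B at 269. VWF at 84.1 and SOX10 at 106 were lower in BE(2)-C than in SK-N-AS, with 119 and 138, and ERBB3 at 60 was below the overall median.

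Two-pore-domain leak channel genes gave 3 marks among 8 tested. KCNK1, a weakly conducting leak channel, gave 1230, 1320 and 1310 in SK-N-AS, against 156 to 610 (median 215) on the 12 other arrays. KCNK3, an acid-sensitive leak channel, gave 1060, 1010 and 1010 in BE(2)-C, against 89 to 367 (median 253). KCNK5, an alkaline-activated leak channel, gave 90.4, 107 and 106 in KELLY, against 26.3 to 52.2 (median 37.4). Each gene had a different highest line. The smallest differences were 1.25 for KCNK1 (highest adjusted p = 7.48e-13), 1.54 for KCNK3 (3.28e-13) and 1.10 for KCNK5 (1.87e-07; background of genes marking KELLY as higher 0.472%), and none of the 3 marks held after centring, where KCNK3 instead marked SK-N-AS as lower. The other bright probe sets of KCNK1 (1) and KCNK3 (3) had the same extreme line. KCNK4 and KCNK16 were highest in SK-N-AS, at 275 and 149, and lowest in SH-SY5Y, at 87.6 and 60.7; KCNK16 turned to -0.05 after centring.

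KCNK3 was 1 of 3 channel genes with the letters TTCAGCACC, part of the element bound by the neuronal gene repressor REST, in its promoter window, with CACNG3 and KCNH6. Either strand was searched, and 3 of 146 windows of channel genes (2.05%) and 0.376% of all windows held it. The match in KCNK3 reads on the opposite strand and begins 31 bases before the start, in capitals here.
KCNK3, chr2:26692662-26692721, + strand: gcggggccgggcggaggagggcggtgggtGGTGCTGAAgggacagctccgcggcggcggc
REST itself gave 236, 192 and 192 in SK-N-AS, against 48.5 to 84 (median 66.2) elsewhere, and KCNK3 averaged 104 ± 14.2 in SK-N-AS, its lowest line (SD, n = 3). The other 2 genes with the letters were lowest in SH-SY5Y: KCNH6 averaged 72.8 in SK-N-AS, against 41.3 in SH-SY5Y, and CACNG3, below the filter, 37.1 and 27. Any relation of REST to these genes was not tested. REST exceeded each other line by at least 1.42 (highest adjusted p = 7.21e-11) as deposited, and by at least 0.61 after centring, where it was not a mark. The other 7 measured genes of the REST complex list marked no line as deposited.

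HCN3, the single HCN gene tested, gave 470, 530 and 460 in NGP, against 152 to 231 (median 208) elsewhere. NGP was above every other array, by at least 1.12 (highest adjusted p = 1.66e-11), and the mark was lost after centring. Of 2 other bright probe sets 1 was highest in NGP, and without probe sets that can cross-hybridise NGP minus SK-N-AS turned to -0.24 for HCN3. HCN4 and HCN2 were below the median in all lines.

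By line, as counts beside the background, NGP was marked as higher by 7 channel genes (10.4%, against 1.67% of all), BE(2)-C by 6 (8.96%, against 3.46%), SK-N-AS by 2 (2.99%, against 12.6%) and KELLY by 1 (1.49%, against 0.472%). Of these genes, 2 in NGP, 2 in BE(2)-C, 1 in SK-N-AS and 1 in KELLY had passed the filter through that line alone. SK-N-AS was marked as lower by 5 (7.46%, against 2.12%), and after centring by 11 (background 5.56%), with CACNG4, KCNC1, KCNH2, KCNH8, KCNK12 and KCNK3 added. No channel gene marked SH-SY5Y as higher in limma (background 0.307%; 0 also at an unadjusted p under 0.05 with no fold threshold), and CACNG4, KCNA3 and KCNQ1 did after centring. None marked NGP as lower (background 1.15%; 0 unadjusted) or KELLY as lower (background 1.74%; 3 unadjusted, and SCN9A after centring).

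Whether channel genes followed the MYCN classes was asked line by line and over line means. KCNK1 was the single gene that separated them in all 6 contrasts: the 9 arrays of NGP, BE(2)-C and KELLY read 156 to 259 (median 194) and the 6 arrays of SK-N-AS and SH-SY5Y 499 to 1320 (median 918), with no overlap. Each amplified line minus each other line was -1.17 or lower (highest adjusted p = 1.45e-11; background 0.346%), also after centring. None was called higher in all 6 (background 0.684%; 6 at an unadjusted p under 0.05 with no fold threshold), and KCNMA1 was after centring, by at least 1.40. Its other bright probe sets did not all share this order. As deposited, KELLY read 73.9 on another of them, against 110 for SK-N-AS and 114 for SH-SY5Y. A further one gave 35.9, against 52.7 and 55.5, and the last gave 77.7, against 77.1 and 28.6. Taking the line as the replicate, 3 against 2, no channel gene passed in limma (0.33% of all tested genes did), and 12 had an unadjusted p under 0.05 (17.9%, against 5.08% of all); after centring 3 had (4.48%, against 6.18%). For KCNK1 the class difference was -2.07 (SE 0.84, adjusted p = 0.567) and for KCNMA1 1.79 (SE 0.80, adjusted p = 0.768). MYCN by the same test differed by 6.63 (SE 0.84, adjusted p = 2.72e-07), and by 6.67 with an adjusted p = 0.201 after centring. As deposited, the errors of this test rest mostly on the spread shared between genes, with 69.8 prior degrees of freedom. After centring the prior degrees of freedom were 2.24, so the errors there rest far less on it. An exact permutation test of 3 against 2 lines cannot give a two-sided p below 0.1.

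Proteins that assemble with the channels were listed separately. Over all tested genes 25.5% marked a line as deposited and 19% after centring. Of 12 sodium channel partners, 11 were tested and 7 marked a line, 5 after centring. CNTN1, an axonal adhesion protein, read 37.9, 36.6 and 38.3 in SK-N-AS, against 473 to 1570 (median 955) elsewhere, a difference of -3.84 or lower (highest adjusted p = 2.92e-21). ANK3, the ankyrin that anchors sodium channels at the axon initial segment, read 2500, 2430 and 2730 in SK-N-AS, against 32.7 to 572 (median 176), at least 2.29 above each line (highest adjusted p = 8.61e-16). CNTN1 and ANK3 thus moved in opposite directions in the line lowest for SCN3A and SCN3B, and both held after centring. Among 9 tested of 13 measured calcium channel partners 5 marked a line or separated the classes, on either scale. RIMBP2 links calcium channels to the release site and read 28.3, 21.3 and 21.7 in SK-N-AS, against 373 to 686 (median 496), -4.0 or lower (highest adjusted p = 3.78e-21). Its scaffold partner RIMS2 read 2010, 1900 and 1630 in BE(2)-C, against 33 to 215 (median 161), at least 3.2 above each line (highest adjusted p = 4.98e-19). Both held after centring.

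ABCC9, the sulfonylurea receptor that joins KCNJ8 and lies beside it on chromosome 12 with no coding gene between, was among 3 of 8 tested potassium channel partners that marked a line, 3 also after centring. ABCC9 read 167, 158 and 185 in BE(2)-C, against 11.9 to 28.8 (median 19.8) elsewhere. Receptor and pore were thus each highest in BE(2)-C without overlap, and ABCC9 exceeded each other line by at least 2.56 (highest adjusted p = 1.81e-12), also after centring. ABCC8 is the receptor beside KCNJ11 on chromosome 11. It had line means of 165 for NGP, 105 for BE(2)-C, 107 for KELLY, 138 for SK-N-AS and 53.2 for SH-SY5Y. Its highest line was NGP, whereas the KCNJ11 probe set used was highest in SK-N-AS. Another bright KCNJ11 probe set was highest in NGP, like ABCC8, at 101, while SK-N-AS read 77.9 on it. SH-SY5Y, lowest for both, was the lowest line for 56.4% of all tested genes. CNTNAP2, which clusters potassium channels at axons, read 2450, 3270 and 3660 in KELLY, against 48.2 to 835 (median 279), at least 2.0 above each line (highest adjusted p = 2.38e-12) and held after centring.

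Among other voltage-gated and leak cation channels, 4 of 10 tested genes marked a line, 4 also after centring, and 3 of them code for accessory proteins of the sodium leak channel. NALF1, an auxiliary subunit, read 43.4, 49.5 and 53.6 in SK-N-AS, against 454 to 1980 (median 844) elsewhere. UNC80, a large accessory protein, read 18.2, 12.4 and 14.6 in SK-N-AS, against 67.1 to 128 (median 101). Both were below every other array, by -3.39 or lower (highest adjusted p = 4.3e-20) and -2.27 or lower (highest adjusted p = 8.22e-14), and both held after centring. The pore gene of that channel, NALCN, did not share this: it averaged 59.1 ± 1.5 in SK-N-AS, against 93.2 ± 1.31 for NGP, 43.3 ± 4.21 for BE(2)-C, 40 ± 4.2 for KELLY and 26.2 ± 0.876 for SH-SY5Y (SD, n = 3 each). Of 5 tested CLCN chloride channel genes, 1 marked a line, a share near that of all genes: CLCN4, an endosomal chloride-proton exchanger, read 73.1, 64.2 and 79.6 in BE(2)-C, against 158 to 436 (median 209), -1.19 or lower (highest adjusted p = 1.07e-11) and not a mark after centring.

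**Figure D5:**
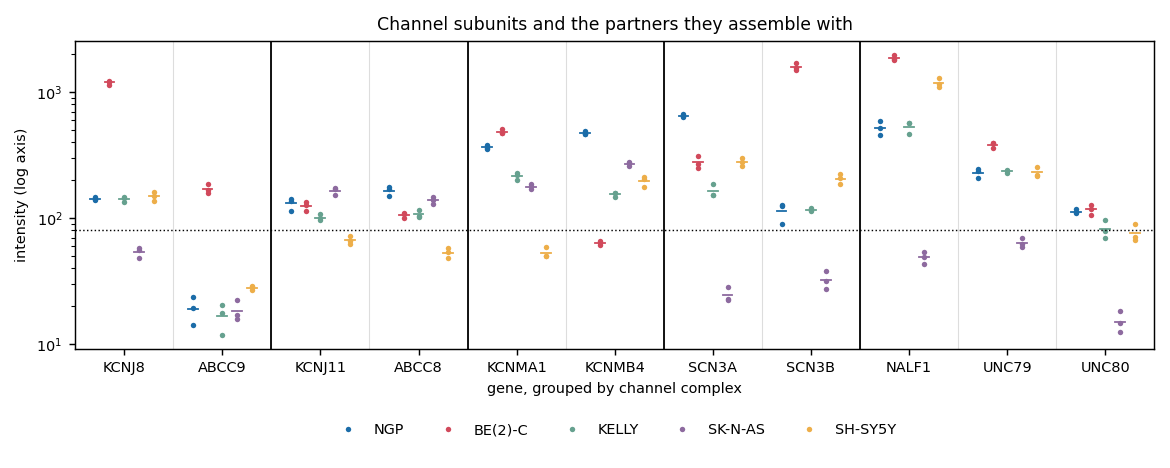
Intensity (log axis) on each array for channel genes and their partners in 5 complexes: KCNJ8 with ABCC9, KCNJ11 with ABCC8, KCNMA1 with KCNMB4, SCN3A with SCN3B, and the sodium leak channel's accessory proteins NALF1, UNC79 and UNC80. KCNJ8 and ABCC9 share BE(2)-C as the highest line, KCNMA1 and KCNMB4 have different lowest lines, and the 3 accessory genes, unlike the pore gene NALCN, which is not drawn, are lowest in SK-N-AS.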

How the data were processed

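Per the submitters' processing notes the authors summarised the arrays with MAS5; its version is not given in the sources used here. The deposited values are intensities on a linear scale for 49494 probe sets, used without further normalization and tested as log2(intensity + 1). Probe sets were named from the platform annotation: 45277 name 1 gene, 1333 several and 2682 none, and 202 are controls. The probe set with the highest mean log2 value stood for each of 18244 genes. The 12721 genes with a line mean that reached the overall median (80.6) were tested with limma 3.58.1 in R 4.3.3 (1 mean per line, intensity-dependent prior variance, Benjamini-Hochberg over all tested genes in each contrast), and called at an adjusted p under 0.05 and a log2 difference of at least 1. The number of arrays limits the precision. Correlations were at least 0.993 within lines and at most 0.892 between lines. Deviations of same-numbered arrays correlated between -0.23 and 0.23. This does not exclude a shared batch, and the labels do not say whether the numbers pair arrays.

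The members and lists were chosen with earlier results of these data known. Named genes are those that marked a line or separated the classes (at most 6 per direction, by smallest difference), the 4 brightest of each family, the 3 genes on each side of the filter and 2 of each partner list. Other genes in the text were named after their values were seen, where a small count is spelled out or a gene completes a complex. The alternatives changed the scaling, pseudocount, floor, filter, probe-set choice, fold threshold, replicate block and arrays left out.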

Additional observations from a re-analysis of the deposited data

How the results depend on the processing

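Of the alternatives tried for the named genes other than leaving out an array, 495 kept direction and side of the threshold, 46 lost the call, 10 gained it and 10 reversed. The cause of each change below was not tested, except that fewer values vary under a floor and more genes pass with no fold threshold, by construction. Values below the overall median approach those of the background probe sets, and a fold there understates a change.

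With arrays centred on their medians, 32 channel genes of BE(2)-C, 23 of SK-N-AS and 38 of SH-SY5Y lay above the median; 34 were called for KELLY minus SK-N-AS, 18 for BE(2)-C minus SH-SY5Y and 25 for SK-N-AS minus SH-SY5Y; 1 marked SK-N-AS as higher and 11 as lower, 3 SH-SY5Y as higher and 0 as lower, 0 KELLY as higher and 1 as lower; 1 separated the classes as higher; 0 CLCN genes and 3 genes of the REST list marked a line. Centred differences reversed for SK-N-AS minus SH-SY5Y in CACNB1 (-0.28), CACNG6 (-0.14), KCNJ11 (-0.03), SCN2B (-0.08), KCNK16 (-0.05), KCNE5 (-0.13) and KCNIP2 (-0.33), for BE(2)-C minus SH-SY5Y in KCNMB3 (-0.04) and for KELLY minus SK-N-AS in SCN2A (0.06). With quantile normalization, 23 of SK-N-AS and 34 of SH-SY5Y lay above the median; 21, 19 and 23 were called for BE(2)-C, KELLY and SK-N-AS minus SH-SY5Y; marks were 1 and 8 for SK-N-AS higher and lower, 4 and 0 for SH-SY5Y, 0 and 1 for KELLY; 1 separated the classes as higher, and the CLCN and REST lists gave 0 and 2. With ERCC medians made equal, 22 were called for BE(2)-C minus SH-SY5Y, 1 marked KELLY as lower and 2 genes of the REST list marked a line.

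A pseudocount of 16 gave 22 calls for BE(2)-C minus SH-SY5Y, 0 marks of KELLY as higher and 3 calcium channel partners. A floor at the median gave 8 calls for KELLY minus SK-N-AS, 16, 3 and 14 for BE(2)-C, KELLY and SK-N-AS minus SH-SY5Y, 10 for NGP minus KELLY, 12 for BE(2)-C minus KELLY, 3 marks of SK-N-AS as lower, 0 of BE(2)-C as lower, 0 of KELLY as higher, 4 sodium channel partners and 2 leak channel genes. With no filter 1 gene, CACNG2, marked SH-SY5Y as higher. With probe sets of a gene averaged, 32, 17 and 27 lay above the median in BE(2)-C, KELLY and SK-N-AS, 0 marked KELLY as higher and 4 sodium channel partners marked a line. Without probe sets that can cross-hybridise, 0 marked SH-SY5Y as lower, 1 gene (KCNAB1) passed over line means, and HCN3 reversed to -0.24 for NGP minus SK-N-AS. With no fold threshold, calls numbered 58, 53 and 58 for NGP, BE(2)-C and KELLY minus SK-N-AS, 58, 60, 54 and 65 for NGP, BE(2)-C, KELLY and SK-N-AS minus SH-SY5Y, 51 for NGP minus BE(2)-C, 43 for NGP minus KELLY and 59 for BE(2)-C minus KELLY; marks were 19 and 13 for SK-N-AS higher and lower, 30 for SH-SY5Y lower, 12 for NGP higher, 16 and 2 for BE(2)-C, 2 and 3 for KELLY, and 6 and 2 separated the classes.

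Leaving out 1 array at a time gave 1 to 2 marks of SH-SY5Y as lower (2 without SK-N-AS 1, SH-SY5Y 1, SH-SY5Y 3 or NGP 3, with KCNAB1, CACNA2D3 or KCNJ12 added), 0 to 1 of KELLY as lower (SCN9A, without SH-SY5Y 1, SH-SY5Y 3 or KELLY 2) and 1 to 2 genes of the REST list (RCOR1 added, without SK-N-AS 3 or BE(2)-C 3). With the replicate number as a block the calls numbered 24, 20 and 20 for NGP, BE(2)-C and KELLY minus SK-N-AS, and 39 for SK-N-AS minus SH-SY5Y, as without it, and no count changed.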

Other observations

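Of the 18 channel genes at or above the median in a single line, the 3 in NGP were CACNA1A, CACNA1H and KCND2, and the 2 in KELLY were KCNK5 and KCNK10. The 6 in BE(2)-C were KCNAB1, KCNT1, KCNH4, KCNH6, KCNK12 and KCNMB3. The 7 in SK-N-AS were CACNA2D1, CACNA2D4, CACNB1, CACNB2, CACNG1, KCNIP2 and KCNJ14. KCNIP4, which codes for a cytoplasmic partner of A-type potassium channels, had line means of 22.5 ± 5.6 for NGP, 124 ± 8.56 for BE(2)-C, 93.4 ± 5.18 for KELLY, 65.4 ± 2.82 for SK-N-AS and 17.5 ± 4.56 for SH-SY5Y (SD, n = 3 each). KCNG1, a silent potassium channel subunit, had 351 ± 65.5 for NGP, 196 ± 26.9 for BE(2)-C, 45.7 ± 5.29 for KELLY, 61.8 ± 10.7 for SK-N-AS and 31.5 ± 3.06 for SH-SY5Y. KCNH8, of the ether-a-go-go-like group, had 251 ± 15.5 for NGP, 152 ± 1.69 for BE(2)-C, 18.1 ± 4.74 for KELLY, 18.7 ± 4.96 for SK-N-AS and 100 ± 7.81 for SH-SY5Y. These 3 genes were named after their values were seen.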
